A study of Mus musculus with 5 samples.

Results

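Cycling proximal tubule cells were taken here as droplet barcodes that held both proliferation transcripts Mki67 and Top2a together with transcripts of the proximal tubule. A barcode had to carry at least 3000 unique molecular identifiers (UMIs, each standing for 1 captured transcript), at least 200 genes and at most 25% of UMIs on mitochondrial genes. It also had to hold at least 1 UMI of Mki67, at least 1 of Top2a, at least 2 of Lrp2 and Slc34a1 together, and none of Ptprc or Pecam1. The barcodes were thus chosen by their measured UMIs of these genes, and the rule chose 495 of the 37382 barcodes that met the depth, gene and mitochondrial limits, and 1.49% of the 33289 of those that met the same proximal tubule limits. The comparison barcodes were the 32023 proximal tubule barcodes in which Mki67 and Top2a were both at 0, and a further 771 held only 1 of these genes.

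The data were single-cell RNA sequencing counts from kidneys of mice after unilateral ischemia-reperfusion (UIR), a model in which 1 kidney loses and then regains its blood flow, used to follow acute kidney injury (AKI) towards chronic disease. The labels give a Sham group and 4 AKI groups, taken on day 1, day 3, day 14 or day 28, with C57BL/6J males of 6 to 8 weeks and a protocol that names 3 mice for each kidney sample, which leaves unsaid whether they shared a library. The single matrix held 5 libraries, told apart by the number at the end of the barcode, and no label tied that number to a group. Libraries are therefore named 1 to 5, no value below belongs to a time point, and no comparison between groups was made.

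The proximal tubule reabsorbs most of the glucose, phosphate, amino acids and protein that the glomerulus filters, and its S3 segment, in the outer medulla, is known to be easily injured by ischemia. Its epithelium divides rarely in the healthy adult kidney, and after injury surviving tubule cells are known to enter the cell cycle and refill the tubule. A dividing cell copies its DNA in S phase, prepares for division in G2 and separates its chromosomes in mitosis, and CDK inhibitors such as p21 (Cdkn1a) can hold it between these steps.

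The genes of the rule are Mki67 (ENSMUSG00000031004, chr7:135689784-135716361, minus strand), which encodes the Ki-67 protein that coats mitotic chromosomes, and Top2a (ENSMUSG00000020914, chr11:98992943-99024189, minus strand), a topoisomerase that untangles DNA. Lrp2 (ENSMUSG00000027070, chr2:69424340-69586065, minus strand) encodes megalin, the endocytic receptor of the brush border. Slc34a1 (ENSMUSG00000021490, chr13:55398187-55415592, plus strand) encodes the phosphate transporter NaPi-IIa. Positions are those of the GENCODE M21 annotation of GRCm38, the build also called mm10. The median barcode chosen held 5 UMIs of Mki67 (range 1 to 68), 4 of Top2a (1 to 26), 7 of Lrp2 (0 to 47) and 15 of Slc34a1 (0 to 480). Both proliferation genes had at least 2 UMIs in 357 of the 495 (72.1%), both were at 1 UMI in 48 (9.70%), and Lrp2 and Slc34a1 were both present in 471 (95.2%).

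Since these values chose the barcodes, and since the libraries are not replicates of a group, differences from the comparison barcodes are given as descriptions, with counting intervals and without tests. All intervals are 95% intervals that cover counting error only.

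The sample labels name the cell type as goblet cell. Of 4 goblet cell genes, chosen after the other values were seen, Muc2 had a UMI in 2 of 495 cycling barcodes (0.404%) and in 0.0344% of comparison barcodes. Clca1, Zg16 and Spink4 were at 0 of 495. By an approximate limit of 3 over 495, not an exact interval, this allows a share of barcodes with a UMI of up to 0.606%. It says nothing of cells that express the gene below detection, and Spink4 was in 0.0531% of comparison barcodes. The label is not used as a name for these cells, which were chosen by proximal tubule transcripts. The proximal tubule name was checked against the 10 of 12 marker genes that took no part in the rule. Their summed level had medians of 75, 67.6, 63.7, 75.5 and 96.3 UMIs per 10000 in the cycling barcodes of libraries 1 to 5, 129, 108, 78.8, 126 and 132 in the comparison barcodes, and 3.92, 2.97, 12.8, 6.92 and 34.8 in 1278 barcodes with at least 2 UMIs of the leukocyte gene Ptprc. At least 5 UMIs of these 10 genes were found in 490 of the 495 cycling barcodes. Of the 1278 Ptprc barcodes, 699 had at least 5 UMIs of all 12 markers, so such a count alone does not tell cell types apart. Some deep cycling barcodes held few of the 12, such as 1 of library 2 with 38682 UMIs and 1.55 marker UMIs per 10000. Leukocyte markers other than Ptprc summed to 0.558 UMIs per 10000 in cycling barcodes (0.0488 to 2.68 over the libraries), against 1.59 expected from the comparison barcodes of the same libraries and 186 in the Ptprc barcodes. In libraries 1, 2 and 5 the cycling barcodes lay above the comparison barcodes, with 2.68 against 1.18, 0.862 against 0.751 and 0.0488 against 0.0345. Endothelial markers other than Pecam1 summed to 0.0620 against 0.0420 expected, podocyte markers to 0.0864 against 0.0501, with 0.627 against 0.0852 in library 1, and intercalated cell markers to 0.0338 against 0.340. Thick ascending limb markers summed to 1.86, with 2.69 expected from the comparison barcodes, but to 4.38 against 0.883 in library 4, and their part in that library's values was not tested. Stromal markers summed to 0.618 against 0.0949 expected and had at least 5 UMIs in 7 barcodes, with Pdgfra at 0. They reached 7.49 against 0.410 in library 1 and 3.32 against 0.159 in library 2. In library 3 they were at 0.123 against 0.0717, and in libraries 4 and 5 they lay below the comparison barcodes. By library medians, the cycling barcodes thus bore proximal tubule markers, at a lower level than the comparison barcodes in each library. Leaving out barcodes with markers of other cell types, an alternative used below, removed 190 of the 495 cycling and 8972 of the 32023 comparison barcodes.

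At the edges of the rule, the same 10 proximal tubule markers summed to 59.9 UMIs per 10000 in the 3 cycling barcodes less than 10% above 3000 UMIs and to 62.7 in the 3 left out for lying up to 10% below it, against 65.8 in all cycling barcodes. They summed to 9.72 in the 14 barcodes with only 2 or 3 UMIs of Lrp2 and Slc34a1, and to 3.15 in the 29 with 0 or 1, which the rule left out and which had 18.6 leukocyte marker UMIs per 10000. The 16 barcodes left out for 1 UMI of Ptprc had 24.0 proximal tubule and 24.5 leukocyte marker UMIs per 10000.

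Cycling barcodes were spread unevenly over the libraries. Libraries 1 to 5 held 13, 21, 328, 118 and 15 of them among 5069, 5535, 10256, 6045 and 6384 proximal tubule barcodes. Their share was 0.256% (0.137 to 0.438) in library 1, 0.379% (0.235 to 0.579) in library 2, 3.20% (2.87 to 3.56) in library 3, 1.95% (1.62 to 2.33) in library 4 and 0.235% (0.132 to 0.387) in library 5. Libraries 3 and 4 stood above the others, with intervals that did not overlap those of libraries 1, 2 and 5, which overlapped one another. The share depends on depth, because a deeper barcode shows more transcripts. Cycling barcodes had a median of 9117 UMIs and 2999 genes against 6587 and 2205 in the comparison barcodes, and a median of 9.62% mitochondrial UMIs against 11.2%. Within libraries 1 to 5 the mitochondrial medians were 9.62%, 7.66%, 9.42%, 9.91% and 12.3%, against 12.9%, 11.6%, 9.39%, 11.3% and 12.8%. In library 3 they were thus near the same. When every barcode was thinned to 3000 UMIs and the rule applied again, 277 of 32691 barcodes (0.847%) qualified, and the shares were 0.159%, 0.198%, 1.74%, 1.26% and 0.176% in libraries 1 to 5. The order of libraries 3 and 4 above the rest was kept, and the interval of library 3 (1.49 to 2.02) then overlapped that of library 4 (0.991 to 1.57). Of the 495 barcode sequences, 4 (0.808%) occurred in another library among barcodes meeting the limits, none of them with another cycling barcode. Over all barcodes meeting the limits this share was near the same, 287 of 37382 (0.768%).

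**Figure D1:**
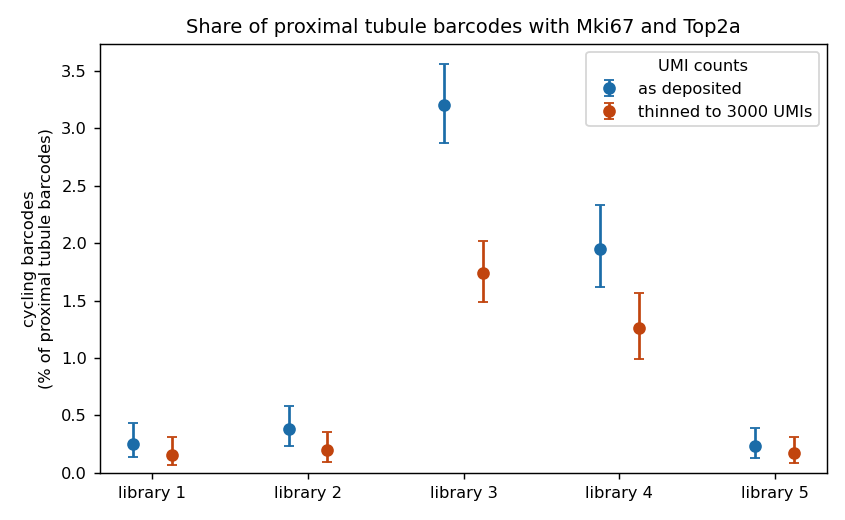
Cycling barcodes as a percentage of proximal tubule barcodes in each of the 5 libraries, from counts as deposited and after thinning each barcode to 3000 UMIs. Points are shares and bars are exact 95% binomial intervals. Libraries 3 and 4 lie above libraries 1, 2 and 5 at either depth.

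Cell cycle transcripts outside the rule's genes were more abundant in cycling than in comparison barcodes. At 3000 UMIs, the 47 genes of an S phase and replication list had a median of 14 UMIs per barcode and the 66 genes of a G2 and mitosis list had 25, against 1 and 2 UMIs in the comparison barcodes. At least 5 UMIs of the lists together were found in 492 of 495 cycling barcodes (99.4%) and in 36.3% of the comparison barcodes. The barcodes with only 1 of the proliferation genes lay between, with medians of 3 and 5 UMIs. The 48 cycling barcodes with 1 UMI each of Mki67 and Top2a had 30.8 UMIs per 10000 of the G2 and mitosis list, against 95.1 in all cycling barcodes, 25.6 in those with Mki67 alone and 20.6 in those with Top2a alone. Of the S phase list the 48 had 36.5, against 43.1, 15.4 and 18.6 in the same order.

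The balance between the phases differed between the libraries that held most of the cells. In library 3 the median was 15 S phase UMIs and 20 G2 and mitosis UMIs, and in library 4 it was 10.5 and 45. The G2 and mitosis list exceeded the S phase list in 219 of 328 barcodes in library 3 (66.8%, 61.4 to 71.8) and in 102 of 118 in library 4 (86.4%, 78.9 to 92.0), so the intervals did not overlap. Libraries 1, 2 and 5 gave 76.9%, 85.7% and 86.7%, over 13, 21 and 15 barcodes. In all, G2 and mitosis exceeded S phase in 362 of 495 (73.1%), S phase exceeded it in 122, and 61 barcodes lay within 2 UMIs of equality. The G2 and mitosis list is the longer one, and it also exceeded the S phase list in 67.1% of the comparison barcodes, in 61.9% of those in library 3 and 65.1% of those in library 4, though on medians of 1 and 2 UMIs. In 114 cycling Ptprc barcodes, a set that can hold dividing leukocytes and mixed droplets, G2 and mitosis exceeded S phase in 91.2%. Mki67 and Top2a are themselves highest in G2 and mitosis, so a cell early in S phase could miss the rule. The barcodes with 1 of the genes had G2 and mitosis ahead in 55.1%.

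**Figure D2:**
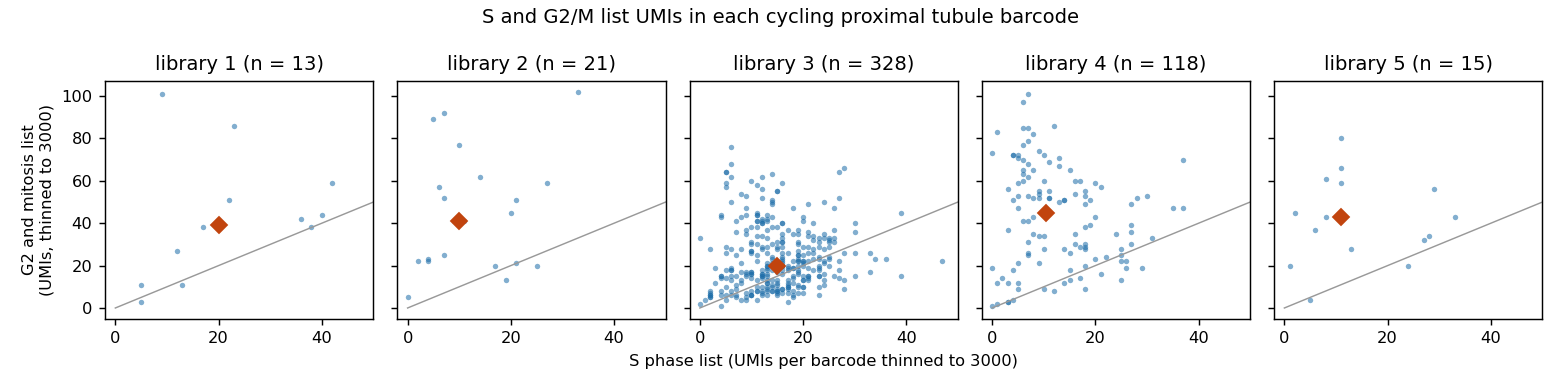
UMIs of the S phase list against UMIs of the G2 and mitosis list in each cycling barcode after thinning to 3000 UMIs, by library. Each point is 1 barcode, the diamond is the library median and the line marks equality. Library 3 has a median of 15 and 20 UMIs and library 4 of 10.5 and 45.

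Gene by gene, the UMIs seen in cycling barcodes were divided by those expected if they had the composition of the comparison barcodes of their own library. Of 10513 genes with at least 40 observed plus expected UMIs, 949 (9.03%) were at least 2-fold higher and 85 (0.809%) at least 2-fold lower with the same direction in libraries 2, 3 and 4, those with at least 20 cycling barcodes. The median log2 ratio over all genes tested was 0.15, with 6844 genes (65.1%) above 0 and 3669 (34.9%) below, and list values below are to be read against these. Of all UMIs in cycling barcodes, 62.6% came from library 3, so this library weighs most in the pooled ratios. Without library 3 the cycling share was 0.725%, the median over all genes was 0.20, and the list medians given below rose to 4.05 for S phase, 7.46 for G2 and mitosis and 4.41 for DNA repair.

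Replication genes were higher without exception among those tested. All 46 S phase genes tested were at least 2-fold higher, with a median log2 ratio of 3.09 and a range of 1.31 to 6.88, and Orc1 was too low to test. Pcna, the clamp that holds DNA polymerase on its template, stood at 339, 283, 342, 281 and 317 CPM (counts per 1000000 UMIs) in cycling barcodes of libraries 1 to 5, against 22.9, 20.8, 44.2, 22 and 19.9 in comparison barcodes, which is a log2 ratio of 3.17 (3.11 to 3.24). The library ranges did not overlap. Rrm2, a subunit of ribonucleotide reductase that makes DNA building blocks, had a log2 ratio of 6.18 (6.11 to 6.26), with 1325 UMIs observed and 18.2 expected. The repressors E2f7 and E2f8, which are made in S phase and shut off replication genes, reached 6.65 and 6.88. Tyms, thymidylate synthase, and the G1/S cyclins Ccne1 and Ccne2, named after their values were seen, had ratios of 2.62, 4.94 and 4.39.

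The G2 and mitosis list was higher still. Of 65 genes tested, 64 were at least 2-fold higher, with a median of 6.05. Hmmr, a spindle protein, stood at 180, 295, 176, 436 and 322 CPM in libraries 1 to 5 against 0.0946, 0.124, 0.726, 0.579 and 0.0851, a log2 ratio of 8.69 (8.61 to 8.77). Prc1, which bundles the microtubules of the central spindle, followed with 7.89 and the microtubule depolymerase Kif2c with 7.61. The abundant genes Hmgb2, a chromatin protein, and Stmn1, a microtubule destabiliser, had 3.07 and 3.84, while Tubb4b, a tubulin, had 1.23. The mitotic kinase Cdk1 and the cyclin Ccnb2, named after their values were seen, had 6.33 and 6.99. The exception was Pttg1, securin, which was below expectation at -0.51 (-0.69 to -0.33) and in all 5 libraries. Whether other copies of Pttg1 in the genome share its reads was not tested, so this value is uncertain. At 3000 UMIs a UMI of Cdk1 was seen in 40.6% of cycling barcodes (36.2 to 45.1), 0.447% of comparison barcodes and 5.09% of Ptprc barcodes, whose median depths were 9117, 6587 and 5515 UMIs.

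The promoters of these genes are shown because the lists stood higher together. RefSeq promoters of GRCm38.p6 were matched by symbol for 38 of 47 S phase and 53 of 66 G2 and mitosis genes, and the 250 bases before each transcript start were searched on both strands. The motifs were the CCAAT box (CCAAT), the cell cycle homology region or CHR (TTTGAA or TTCGAA), and an E2F motif (TTTCCCGC, TTTGGCGC, TTTCGCGC or TTTGCCGC). CCAAT was found in 43 of 57 G2 and mitosis promoters (75.4%), 60.0% of 45 S phase promoters and 33.8% of all 32851 promoters. CHR letters were in 38.6%, 15.6% and 17.1%, and both motifs together in 36.8%, 13.3% and 6.02%. E2F letters were in 3.51% of G2 and mitosis, 24.4% of S phase and 1.86% of all promoters. Promoters of the proximal tubule transport list held CCAAT in 27.6%, CHR in 20.7% and E2F in 3.45% of 29. A match is a run of letters and not a shown binding site.

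The last 150 bases before the start of 8 genes, chosen as examples of either kind, are printed, 5′ to 3′ on the strand of the gene, with matches in capitals. Top2a and Mki67 are genes of the rule, Cdk1, Ccnb2 and Cdc20 are mitotic, Mcm5 and Mcm6 belong to the helicase that opens DNA in S phase, and Rrm2 makes DNA building blocks.
Mki67: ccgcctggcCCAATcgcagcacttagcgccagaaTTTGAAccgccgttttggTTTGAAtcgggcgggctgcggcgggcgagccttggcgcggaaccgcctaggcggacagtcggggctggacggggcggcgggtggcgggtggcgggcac
Top2a: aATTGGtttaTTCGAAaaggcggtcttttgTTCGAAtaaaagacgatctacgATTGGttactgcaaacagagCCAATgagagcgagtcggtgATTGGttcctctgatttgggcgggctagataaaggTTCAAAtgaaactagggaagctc
Cdk1: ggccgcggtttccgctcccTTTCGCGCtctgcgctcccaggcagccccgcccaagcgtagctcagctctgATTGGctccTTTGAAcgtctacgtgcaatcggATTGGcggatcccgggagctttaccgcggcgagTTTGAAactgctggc
Ccnb2: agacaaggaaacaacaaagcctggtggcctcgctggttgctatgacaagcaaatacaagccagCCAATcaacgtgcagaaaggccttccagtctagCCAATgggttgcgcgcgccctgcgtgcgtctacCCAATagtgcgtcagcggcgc
Cdc20: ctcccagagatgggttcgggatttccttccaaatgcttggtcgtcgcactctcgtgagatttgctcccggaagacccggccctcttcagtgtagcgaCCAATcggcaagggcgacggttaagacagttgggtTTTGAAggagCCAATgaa
Mcm6: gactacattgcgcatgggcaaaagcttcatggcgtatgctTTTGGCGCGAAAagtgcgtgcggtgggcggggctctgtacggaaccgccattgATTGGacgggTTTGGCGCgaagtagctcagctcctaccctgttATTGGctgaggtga
Mcm5: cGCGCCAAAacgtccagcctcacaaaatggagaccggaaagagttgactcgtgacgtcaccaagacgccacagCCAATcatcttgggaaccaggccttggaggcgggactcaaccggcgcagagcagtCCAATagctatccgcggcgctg
Rrm2: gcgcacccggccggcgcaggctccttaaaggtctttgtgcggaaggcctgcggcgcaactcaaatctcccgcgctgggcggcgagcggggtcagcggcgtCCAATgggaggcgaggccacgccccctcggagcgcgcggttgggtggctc
These stretches lie at chr7:135716380-135716529 (minus), chr11:99024190-99024339 (minus), chr10:69352913-69353062 (minus), chr9:70421555-70421704 (minus), chr4:118437344-118437493 (minus), chr1:128359706-128359855 (minus), chr8:75109359-75109508 (plus) and chr12:24708104-24708253 (plus). Top2a has 4 CCAAT and 3 CHR matches, Mki67 has 1 and 2, Cdk1 has 2 and 2 with 1 E2F match, and Cdc20 has 2 and 1. Mcm6 has 2 CCAAT matches, no CHR match and 3 E2F matches, of which a pair overlap. Ccnb2 has 3 CCAAT matches and no CHR match, Mcm5 has 2 CCAAT matches and 1 E2F match, and Rrm2 has 1 CCAAT match and none of the others. Cdc20 and Mcm6 had log2 ratios of 6.74 and 2.62, beside 6.33 for Cdk1.

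DNA repair genes were higher as a group, all 18 of them at least 2-fold, with a median of 3.52. H2afx, the histone variant that marks broken DNA when phosphorylated, stood at 146, 326, 123, 253 and 342 CPM in libraries 1 to 5 against 11.2, 15.7, 14.2, 15 and 13.7, a log2 ratio of 3.60 (3.51 to 3.70). Fancd2 and Fanci, which act together on DNA crosslinks, had 5.23 and 5.21, on 69 and 61 UMIs. The damage kinases Atr and Atm had 1.19 and 1.13. Transcript levels do not show whether repair took place.

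The genes outside the lists with the largest ratios were led by Ankle1 and Esco2. Ankle1, an endonuclease, had 7.37, Esco2, which joins sister chromatids, 7.27, the mitotic kinase Pbk 7.27, the DNA glycosylase Neil3 7.24, Sgo2a, which guards centromeric cohesion, 7.20, and Aspm, of the spindle pole, 7.14. Mxd3, Ska1 and Kif15 had 7.03, 6.79 and 6.67. The histone genes Hist1h2ap and Hist1h3c had 6.51 and 6.29, Pclaf, a PCNA partner, 5.86, the noncoding RNA Lockd 5.84 and the kinetochore gene Knstrn 5.81. Histone messages made in S phase mostly lack a poly(A) tail, which the 3′ chemistry needs, and the histone gene families are near-identical, so those values are uncertain.

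G1 regulators, which govern entry into the cycle, were closer to expectation. Of 12 G1 regulators tested, 3 were at least 2-fold higher, with a list median of 0.82. These were Rbl1, a pocket protein that binds E2F factors, at 2.74, E2f3 at 2.10 and Cdk2 at 1.96. Cdk4, the kinase of the D cyclins, had 0.95 (0.83 to 1.07). The cyclin Ccnd1 had 0.15 (0.06 to 0.24), no more than the median gene, with log2 ratios of 2.15, 0.25, 0.12, -0.61 and 1.05 in libraries 1 to 5. Myc had -0.37 (-0.52 to -0.23), with library 3 at -0.81 and library 2 at 1.03. Neither Ccnd1 nor Myc was higher in every library.

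Some CDK inhibitors were higher in the cycling cells. Of 23 genes in a list of CDK inhibitors and p53 targets, 6 were at least 2-fold higher, with a median of 0.40, and Cdkn2a, which encodes p16, was too low to test, with 3 UMIs in all. Cdkn1a (ENSMUSG00000023067, chr17:29090976-29100727, plus strand) encodes p21, which blocks CDKs downstream of p53. It stood at 594, 175, 59.7, 508 and 239 CPM in cycling barcodes of libraries 1 to 5, against 53.5, 46.0, 38.3, 34.8 and 22.4 in comparison barcodes. The pooled log2 ratio was 2.40 (2.31 to 2.48). Every library was higher in cycling barcodes, by 3.47, 1.93, 0.64, 3.87 and 3.42, with library 3 lowest. Without library 4 the ratio was 1.48 and without library 3 it was 3.54, so both libraries decide its size.

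The level of Cdkn1a rested in good part on few barcodes, while its presence was wider. The top 3 barcodes held 67.6%, 66.7%, 18.1%, 40.2% and 81.6% of the Cdkn1a UMIs of libraries 1 to 5. Without the highest barcode of each library, a setting chosen after seeing the data, the pooled log2 ratio was 1.94 (1.83 to 2.04) and those of the libraries were 3.00, 1.20, 0.51, 3.35 and 2.71. A UMI was seen at 3000 UMIs in 69.2%, 19.0%, 12.5%, 45.8% and 26.7% of cycling barcodes and in 6.99%, 5.60%, 5.44%, 6.16% and 4.28% of comparison barcodes. The cycling share was thus the higher one in every library. In Ptprc barcodes, a cell type that uses the gene, the share over all libraries was 47.4%.

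Other genes of that list showed the same library order in part. Phlda3, a p53 target that restrains AKT, had 2.40 (2.15 to 2.65), with 1.26 in library 3 and 3.12 in library 4, and 0.52 and 2.96 there without the highest barcode of each library. Mdm2, the ligase that degrades p53, named after its values were seen, had 1.17, with 0.08 in library 3 and 2.37 in library 4, where 1 barcode gave 161 of the 519 UMIs over all libraries, and 0.57 without the highest barcode of each library. Cdkn2d, which encodes p19 and inhibits CDK4, had 3.27 (3.12 to 3.42), with 2.62 and 4.29. Cdkn1b, p27, also named after its values were seen, had 1.10. Btg2 had 0.14, no more than the median gene, but with the same order of -0.65 in library 3 and 1.11 in library 4. Against these, Gadd45g had -0.69 and was below expectation in each library.

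The inhibitors were also compared between phases. The 122 barcodes with more S phase than G2 and mitosis UMIs and the 362 with the reverse had median depths of 8583.5 and 9241.5 UMIs. Within library 4, Cdkn1a stood at 304 CPM in the 12 S phase barcodes and 541 in the 102 G2 and mitosis barcodes, log2 ratios of 3.13 and 3.96. Within library 3 it stood at 42.4 in 104 and 69.3 in 219, ratios of 0.14 and 0.85. Without the highest barcode of the library, the G2 and mitosis levels were 369 CPM in library 4 and 61.5 in library 3, and a UMI was present in 58.3% and 67.3% of the S phase and the G2 and mitosis barcodes of library 4 and in 23.1% and 27.1% of those of library 3. Phlda3 had -0.32 (-2.20 to 1.04) in S phase barcodes, on 4 UMIs, and 2.72 (2.46 to 2.97) in the others. Within library 3 its ratios were -0.85 and 1.73, and within library 4 they were 1.49 and 3.25. In the G2 and mitosis barcodes of library 3 it fell from 11.3 to 6.44 CPM without the highest barcode of the library. Cdkn2d had 1.31 (0.68 to 1.87) and 3.64 (3.48 to 3.80), with 1.18 and 3.02 within library 3 and 0.98 and 4.45 within library 4. Mdm2 had 0.63 (0.29 to 0.94) and 1.33 (1.19 to 1.47) over the libraries together, but 0.19 and 0.05 within library 3 and 2.33 and 2.40 within library 4. In library 4 it stood at 266 CPM in S phase barcodes and 280 in the others, and at 134 in the latter without the highest barcode of the library. Ccnd1 had the opposite order, with 0.69 (0.54 to 0.85) in S phase barcodes and -0.10 (-0.22 to 0.02) in the others. Its ratios were 0.39 and -0.03 within library 3 and 0.19 and -0.68 within library 4, so the pooled S phase value lay above both.

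Nucleotide supply was higher for particular genes. Of 21 genes of nucleotide and one-carbon synthesis tested, 5 were at least 2-fold higher and the median was 0.54. Mthfd2, a mitochondrial folate enzyme, stood at 33.5, 27.7, 24.0, 41.0 and 43.9 CPM against 3.62, 2.51, 6.97, 3.33 and 2.17, a log2 ratio of 2.41 (2.17 to 2.63). Every library was thus higher in cycling barcodes. Phgdh, the first enzyme of serine synthesis, had 1.44 and Impdh2, of guanine nucleotide synthesis, 1.29. The abundant Nme2 and Nme1 had -0.06 and 0.05, and Shmt2 had -0.03. Ribosome biogenesis was closer to the background, with 2 of 21 genes at least 2-fold higher, Nop56 at 1.27 and Nop58 at 1.09, and a median of 0.34. Ncl and Npm1, nucleolar proteins, had 0.71 and 0.64.

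Transport transcripts of the proximal tubule lay mostly below expectation. Of 24 transport genes, none was at least 2-fold lower or higher by the call, yet 22 lay below 0, against 34.9% of all genes, with a median of -0.43. Slc22a6, the organic anion transporter OAT1, stood at 188, 215, 225, 323 and 293 CPM against 763, 694, 427, 549 and 652, a log2 ratio of -1.0 (-1.08 to -0.92). The ranges did not overlap. The sulfate transporter Slc13a1 had -0.94 and OAT3, Slc22a8, -0.91. The rule's own Slc34a1 had -0.49 and Lrp2 -0.15. Slc5a2, the glucose transporter SGLT2 of the early segments, had 0.08 (0.00 to 0.16), with 0.23 in library 3 and -1.30 in library 4, and the amino acid transporter Slc7a8 had 0.48.

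Genes of the S3 segment had the lowest list median over the libraries together, though in library 4 theirs was -0.46 against -0.69 for the transport and for the metabolism list. Of 6 tested, 3 were at least 2-fold lower, against 0.809% of all genes, and none lay above 0, against 65.1% of all genes. The pooled median was -1.17, and those of libraries 1 to 5 were -1.73, -1.70, -0.79, -0.46 and -1.89. Libraries 3 and 4, with 328 and 118 of the 495 cycling barcodes, thus both lay nearer 0 than the pooled median. After thinning the pooled median was -0.74, against -0.61 for metabolism. Slc7a13, the cystine and glutamate transporter AGT1, stood at 167, 102, 27.0, 97.5 and 176 CPM in cycling barcodes against 613, 470, 30.1, 183 and 746, a log2 ratio of -1.29 (-1.45 to -1.13). In library 3 both groups were low and the ratio was -0.16. Slc5a8, a monocarboxylate transporter, had -1.71 (-1.98 to -1.45) and Acsm3 -1.06. At 3000 UMIs, a UMI of Slc7a13 was seen in 30.8%, 19.0%, 4.27%, 16.9% and 40.0% of cycling barcodes in libraries 1 to 5. The shares in comparison barcodes were 57.9%, 43.2%, 6.04%, 26.8% and 63.2%, and those in Ptprc barcodes, which should lack the gene, 12.8%, 9.14%, 2.86%, 3.57% and 26.7%. In each library the cycling share thus lay between the others.

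Metabolic genes also lay mostly below expectation. Of 20 genes of proximal tubule metabolism, 17 lay below 0, against 34.9% of all genes, with a median of -0.69, and Cyp2e1 at -1.26 and Ttc36 at -1.20 passed the 2-fold call. Kap, the androgen-regulated kidney protein, stood at 20676, 15048, 5260, 19910 and 19437 CPM against 42032, 39735, 10749, 25248 and 54831, a log2 ratio of -0.86 (-0.87 to -0.85). It was lower in every library. Miox, which breaks down inositol, had -0.71 and Pck1, of gluconeogenesis, -0.73. Gatm, of creatine synthesis, had 0.01, with 0.36 in library 3 and -0.89 in library 4. Of 25 fatty acid oxidation genes, 23 lay below 0, none reached 2-fold and the median was -0.32, with Slc27a2, a fatty acid importer, at -0.86 and Hadha at 0.01. Glycolysis genes had a median of 0.07, below that of all genes, with Pkm at 0.38 and Hk1 at -0.44.

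The transcription factors of the nephron lay within 2-fold of expectation, mostly below it. None of 11 tested reached 2-fold, and 8 lay below 0, against 34.9% of all genes. The median was -0.09, against 0.15 for all genes. Hnf4a, a master factor of proximal tubule identity, stood at 159, 157, 121, 208 and 127 CPM against 223, 201, 125, 202 and 188, a log2 ratio of -0.09 (-0.19 to 0.01). Maf had -0.05 and Nr1h4, the bile acid receptor, -0.53.

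**Figure D3:**
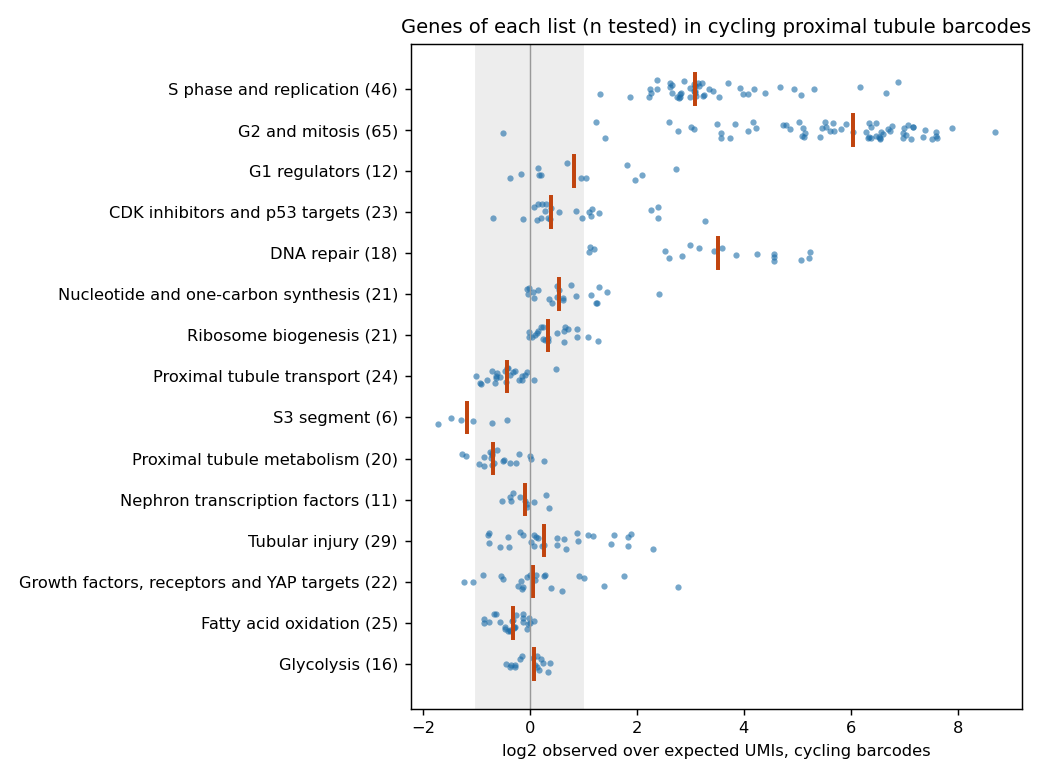
Log2 ratio of observed to expected UMIs of each gene tested in the 15 lists, with the number tested after each name. Each point is 1 gene, the vertical bar is the list median and the grey band marks less than 2-fold. S phase, G2 and mitosis and DNA repair lists lie to the right, with medians of 3.09, 6.05 and 3.52, and the S3 segment list lies lowest over the libraries together at -1.17.

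Injury genes gave no common direction. Of 29 tested, 4 were at least 2-fold higher and 21 lay above 0, a share near the 65.1% of all genes, with a median of 0.27, but the library 3 median was -0.19 and those of libraries 1, 2, 4 and 5 were 0.84, 1.59, 0.51 and 0.69. The median was 1.46 without library 3, -0.12 after thinning and 0.01 without barcodes bearing markers of other cell types. Stromal markers were raised most in cycling barcodes of libraries 1 and 2, and their part in these medians was not tested. Spp1, osteopontin, stood at 2049, 3533, 8388, 3857 and 4158 CPM in cycling barcodes against 1333, 2889, 15882, 4367 and 675, so the pooled log2 ratio of -0.76 came from library 3, and without that library it was 0.10. At 3000 UMIs a UMI of Spp1 was seen in 69.2%, 76.2%, 100%, 91.5% and 66.7% of cycling barcodes in libraries 1 to 5 and in 46.3%, 63.0%, 99.9%, 91.6% and 46.8% of comparison barcodes. In library 3 nearly every barcode had a UMI, so the share cannot show a difference there. The Ptprc barcodes had shares of 34.5%, 44.7%, 100%, 68.5% and 53.3%. Havcr1, the injury marker KIM-1, named after its values were seen, had -0.40 (-0.62 to -0.20). At 3000 UMIs it was seen in 10.7% of cycling and 12.1% of comparison barcodes of library 3, in 3.39% and 2.94% in library 4, and in none of the cycling barcodes of libraries 1, 2 and 5, against 1.36%, 3.44% and 0.158%.

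Several injury genes with high pooled ratios rested on very few barcodes. Vim had 2.30, but 3 barcodes gave 87.8% of its 507 UMIs, its ratios were -0.29 in library 3 and -1.13 in library 4, and at 3000 UMIs it was seen in 1.83% of cycling and 2.79% of comparison barcodes of library 3. The stromal marker Col1a1 had UMIs in 1 cycling barcode of library 1 and 2 of library 2 and was at 0 in libraries 3, 4 and 5, and its part in the Vim value was not tested. S100a6 had 1.90, with 37.5% of UMIs in 3 barcodes and a ratio of -0.84 once barcodes with markers of other cell types were left out. Lcn2 had -0.79, with -1.18 in library 3, and 1 of the 118 barcodes of library 4 gave 116 of that library's 136 UMIs. Krt18, a keratin named after its values were seen, had 1.83 with 45.3% of UMIs in 3 barcodes, yet was seen at 3000 UMIs in 15.4%, 14.3%, 11.3%, 11% and 6.67% of cycling barcodes in libraries 1 to 5, against 3.93%, 2.38%, 7.57%, 2.12% and 1.58% of comparison barcodes. Krt8, its partner, had 0.51 and was above 0 in every library.

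Growth factor, receptor and YAP target genes were also mixed, with 3 of 22 at least 2-fold higher, 2 at least 2-fold lower and a median of 0.05. Cxcl10, an interferon-induced chemokine, stood at 372, 391, 127, 107 and 264 CPM against 51.3, 82.8, 70.0, 32.3 and 17.5, a log2 ratio of 1.38 (1.28 to 1.48), and its ranges did not overlap. The top 3 barcodes held 42.4% of its UMIs in library 3 and at least 70.9% in each other library, and without the highest barcode of each library the ratio was 0.70 (0.57 to 0.83), with 2.29, 1.89, 0.32, 0.24 and 2.80 in libraries 1 to 5. As deposited, a UMI was present in 38.5%, 28.6%, 21.3%, 16.1% and 33.3% of cycling and 5.12%, 7.76%, 11.7%, 5.32% and 3.24% of comparison barcodes. Ankrd1, a YAP target, had 1.76, with 81.1% of 180 UMIs in 3 barcodes, and 0.31 without library 2. Cxcl2 had -1.23 and turned to 0.33 without library 3. Egf had -1.07 on 16 UMIs and Hbegf, an EGF receptor ligand, -0.54.

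**Figure D4:**
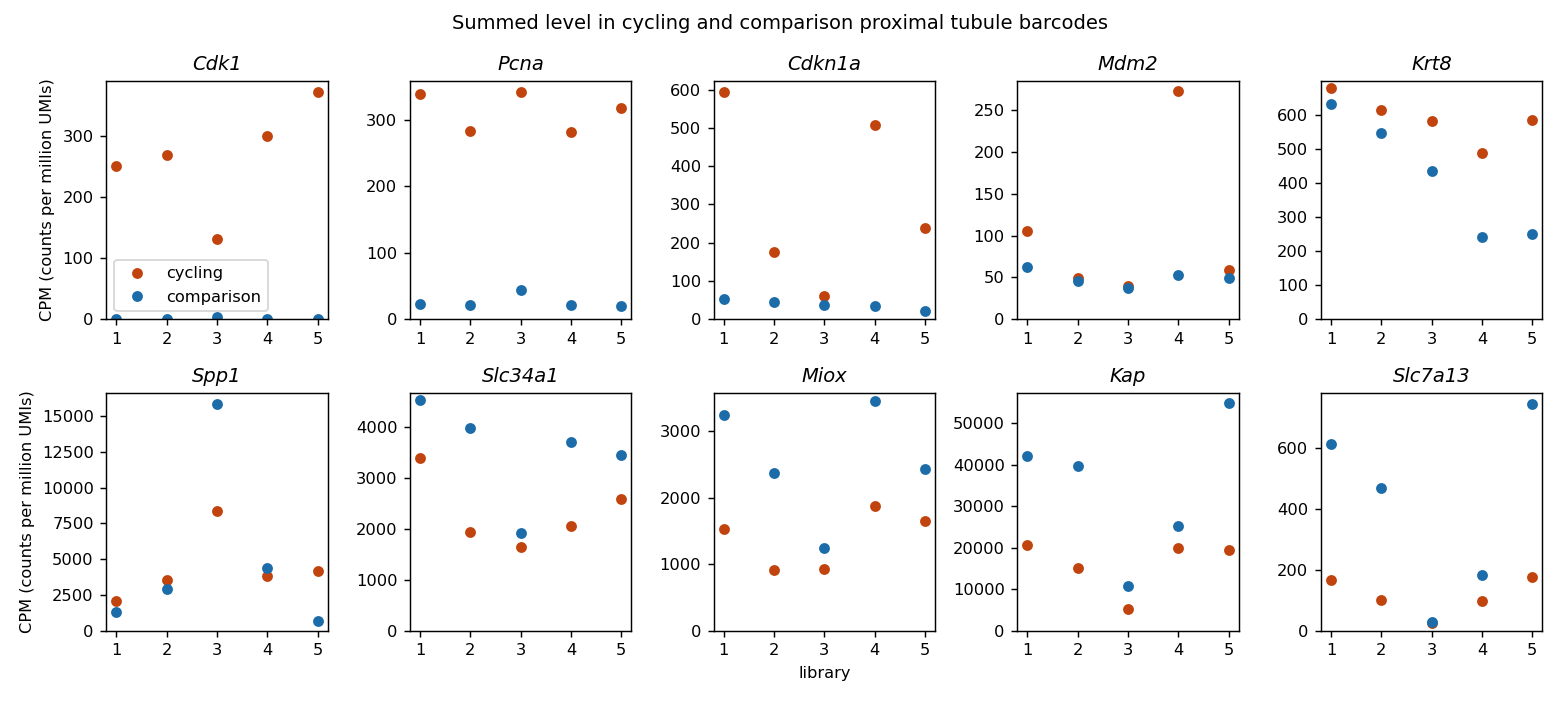
Summed level, in CPM, of 10 genes in cycling and comparison barcodes of libraries 1 to 5, each panel from 0. Points are sums over the barcodes of a library, and the library numbers carry no order in time. Cdk1 and Pcna are higher in cycling barcodes of every library, Cdkn1a most so in libraries 1 and 4, and Kap and Miox are lower in every library.

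Lower genes outside the lists were led by Klk1, a kallikrein of the distal tubule, at -2.20 (-2.41 to -2.0), which was -0.67 without library 3 and -0.42 without barcodes bearing markers of other cell types. Distal convoluted tubule markers summed to 0.222 UMIs per 10000 in cycling barcodes against 0.627 expected, and the part of these in the value was not tested. S100g, a calcium binder, had -1.63. The N-acetyltransferase genes Nat8f6, Nat8f5 and Nat8f1 had -2.08, -1.52 and -1.20, and are close copies of one another, so reads may be shared between them. Nat8f6 stood at 20.9, 33.9, 30.9, 23.8 and 4.88 CPM against 257, 165, 102, 113 and 163. It was lower in every library. The fibrinogen chains Fgg and Fga had -1.47 and -1.43, and the transporters Slc16a4, Slco1a1 and Slc5a10 had -1.35, -1.28 and -1.20. Phlda2, Tmem150a, Tmem140, Gm27216 and Gm10804 had -1.39, -1.39, -1.36, -1.42 and -1.23.

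By phase, transport and metabolism transcripts were lower in the G2 and mitosis barcodes than in the S phase barcodes. The transport list had a median of -0.24 in the 122 S phase barcodes, with 10 of 24 genes above 0, and -0.56 in the 362 others, with 1 above 0. Metabolism had -0.37 and -0.76. The S3 list had -1.29 and -1.11, with no gene above 0 in either. The injury list had -0.36 and 0.53, with 6 and 22 of 29 genes above 0, and CDK inhibitors and p53 targets had 0.03 and 0.54. In all cycling barcodes together 65.1% of all genes tested lay above 0. That share was not computed for either phase set, so these counts have no background of their own. The sets differ in library make-up, with 104 of 122 S phase barcodes in library 3 against 219 of 362, and each was set against its own libraries. Within library 3 the medians of S phase and of G2 and mitosis barcodes were -0.18 and -0.33 for transport, -0.29 and -0.56 for metabolism, -0.56 and -0.93 for S3, -0.52 and 0.03 for injury and -0.22 and 0.19 for CDK inhibitors. Within library 4 they were -0.57 and -0.75, -0.46 and -0.73, -0.43 and -0.46, -0.25 and 0.55, and 1.04 and 1.10 in the same order. The order of the transport, metabolism, injury and CDK inhibitor lists was thus kept in both libraries, for CDK inhibitors in library 4 by little, and that of the S3 list was turned. UMIs of all 12 proximal tubule markers, the rule's genes included, had a median of 101 per 10000 in S phase barcodes and 88.2 in the others within library 3, and 120 and 102 within library 4. The barcodes with fewest of these markers lay in the G2 and mitosis set, such as 1 of library 3 with 47850 UMIs and 6.48 per 10000. S phase barcodes went down to 11.27, in library 3. The part of such barcodes in the list medians, which come from summed UMIs, was not tested.

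**Figure D5:**
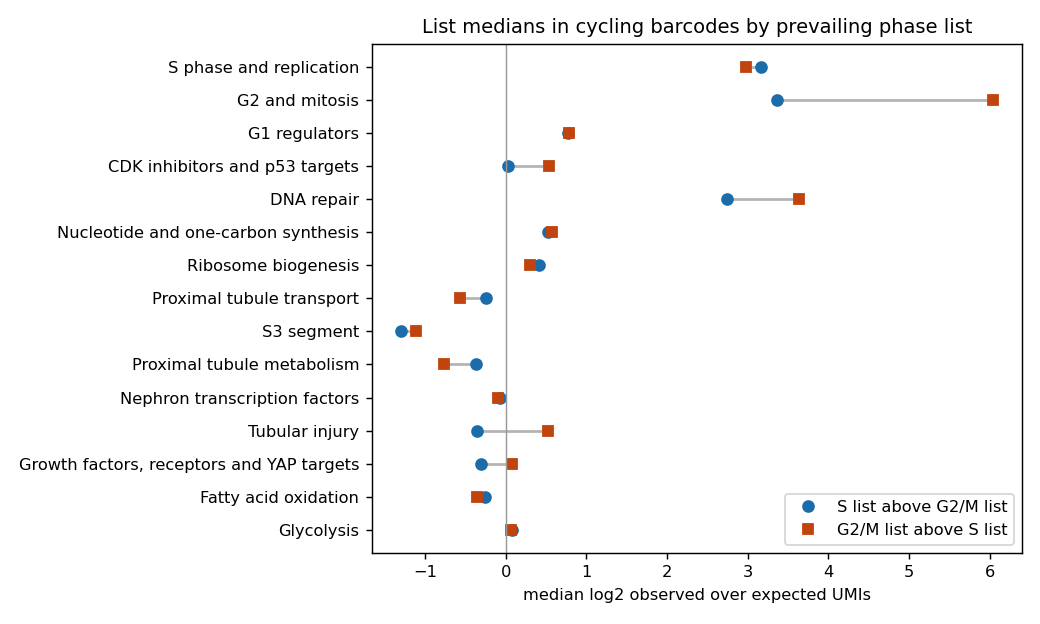
Median log2 ratio of observed to expected UMIs for each of 15 gene lists, in cycling barcodes with more S phase UMIs (circles, n = 122) and with more G2 and mitosis UMIs (squares, n = 362). The S phase and the G2 and mitosis lists set the split and are shown for scale. Transport and metabolism lie lower, and injury and CDK inhibitor lists higher, in the G2 and mitosis barcodes.

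The values of 3 other groups of barcodes stand beside these. In the 771 barcodes with 1 of the proliferation genes, medians were 1.87 for S phase, 2.96 for G2 and mitosis, -0.17 for transport and -0.50 for S3 genes, nearer 0 than in cycling barcodes for each. Injury genes had 0.52, growth factors 0.22 and nephron transcription factors -0.19, farther from 0 than in cycling barcodes. In these 771, stromal, leukocyte and collecting duct principal cell markers summed to 1.56, 2.24 and 1.26 UMIs per 10000. Cycling barcodes had 0.618, 0.558 and 0.227, and the part of these markers in the list medians was not tested. In the 114 cycling Ptprc barcodes, set against Ptprc barcodes without the proliferation genes, the cell cycle lists had 2.66 and 5.15, CDK inhibitors and p53 targets had -0.09, with 7 of 19 genes above 0 against 21 of 23 in cycling proximal tubule barcodes, where 52.2% and 65.1% of all genes tested lay above 0, and transport, S3 and metabolism genes had -1.08, -1.50 and -1.08. Of these 114, 16 lay in library 3. The comparison barcodes with Havcr1, set against those without it, had -0.16 and -0.15 for the cell cycle lists. Their transport and metabolism medians were also below 0, at -0.14 and -0.32. S3 genes had 0.16 and CDK inhibitors and p53 targets 0.19. These differences between groups were not tested.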

How the data were processed

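Droplet libraries were aligned to mm10 and counted by the study with Cell Ranger 6.0, named in its methods and in the submitters' processing notes. What the authors deposited was 1 unfiltered matrix of whole UMI counts over 32285 genes and 10474594 barcodes, whose names end in 1 of 5 numbers. These were read as 5 libraries holding 82426945 to 139382799 UMIs each. The study's methods describe more matrices than the 5 found here, and samples other than these were not analysed here. No label tied a barcode number to a group, so samples entered no comparison, the matrix was treated as 1 pooled sample, and no test or p-value is given.

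The rule for the barcodes, the gene lists and the lists of markers were chosen with earlier results of these data known. UMIs observed in cycling barcodes were divided by UMIs expected from the comparison barcodes of the same library, summed over libraries. Intervals are 95%, exact Poisson for ratios (on the observed UMIs alone) and exact Clopper-Pearson for shares, and cover counting error only. A gene was tested at 40 or more observed plus expected UMIs and called at 2-fold with the same direction in libraries 2, 3 and 4. Named genes were, in each list, the 4 with most UMIs and the 3 with the largest and 3 with the smallest ratio, and outside the lists the 15 largest and 15 smallest ratios among genes with at least 200 observed plus expected UMIs and the same direction in those libraries. Others are said to have been chosen after their values were seen. Some named genes are not reported here. The script for the ratios was tested on simulated data.

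Scrublet's own threshold marked 4 of 37382 barcodes (0.0107%) as doublets, which is too few to have worked, so doublets were kept, and the highest scores, at 0.8% per 1000 barcodes, were left out as an alternative. Other alternatives changed depth, mitochondrial and gene limits, thinned barcodes to 3000 UMIs, matched depth or left out barcodes with markers of other cell types. Another weighted libraries 2, 3 and 4 the same, with the others left out. The rest changed the filter on low counts or left out each library. Leaving out the highest barcode of each library for a gene was added after seeing the data. Promoters came from RefSeq for GRCm38.p6 and gene positions from GENCODE M21, while the annotation behind the counts is given by the study only as an Ensembl release of GRCm38. Tools were Python 3.11.15, numpy 2.4.6, pandas 2.3.3, scipy 1.17.1, scanpy 1.11.5 and matplotlib 3.10.9.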

Additional observations from a re-analysis of the deposited data

How the results depend on the processing

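No paired analysis was possible because the libraries could not be tied to the groups and their replicate numbers. Cycling and comparison barcodes were paired by library in every ratio, with no test over libraries because measured values chose the barcodes. Of the values recomputed for the share, the gene counts and the list medians, 250 were counted as the same and 35 as moved. The share was the same within its counting interval, and a count within 1.5 times. A list median was the same within the range of its pooled value and its values in libraries 2, 3 and 4, a spread and not an error. For injury genes this range was wide, -0.19 to 1.59, so -0.12 after thinning counted as the same. Of the values recomputed for single named genes, 1792 stayed within their counting interval, 702 moved out of it and 2 reversed. Only genes that passed the 2-fold call could be counted as reversed. A change of sign in another gene, such as Spp1 without library 3, was counted as moved or as the same. Medians near 0 changed sign for injury genes (-0.12 after thinning, and just below 0 with depth matched), for nephron transcription factors after thinning, and for growth factors under several alternatives, down to -0.15 without library 2. The S3 median was -0.74 after thinning. Among single genes, S100a6 turned to -0.84 without barcodes with markers of other cell types and Cxcl2, which ran from -1.94 without library 1, to 0.33 without library 3. Without the highest barcode of each library, chosen after seeing the data, Cdkn1a had 1.94, Cxcl10 0.70 and Phlda3 2.03.

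The cycling share was 1.83% from 5000 UMIs, 1.96% at no more than 10% mitochondrial UMIs and 1.07% with 2 UMIs of each proliferation gene. It was 0.847% after thinning and 1.28% without markers of other cell types. With libraries 2, 3 and 4 weighted the same and the others left out, the share was 1.84%. Leaving out each library gave 0.725% to 1.78%. Genes at least 2-fold higher numbered 605 after thinning, 505 of them among the 949, and 839 to 989 without a library, with 640 of the 989 without library 3 among the 949. Genes at least 2-fold lower numbered 131 with 2 UMIs of each proliferation gene and 47 after thinning. They numbered 170 with libraries 2, 3 and 4 weighted the same, and 192 and 762 with the filter at 10 and 1. Without a library they numbered 82 to 126.

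List medians moved to 0.52 for nucleotide synthesis and 0.31 for ribosome biogenesis from 5000 UMIs. Ribosome biogenesis was 0.48 after thinning, 0.32 with depth matched and 0.44 without markers of other cell types. DNA repair was 2.97 at no more than 10% mitochondrial UMIs, G2 and mitosis 6.44 with 2 UMIs of each proliferation gene, nephron transcription factors 0.03 after thinning and glycolysis 0.00 with depth matched. Without a library, medians ran from 3.00 to 4.05 for S phase, 5.51 to 7.46 for G2 and mitosis, 0.47 to 0.88 for G1 regulators, 0.29 to 0.86 for CDK inhibitors, 3.18 to 4.41 for DNA repair, 0.52 to 0.68 for nucleotide synthesis and 0.26 to 0.48 for ribosome biogenesis. They ran from -0.60 to -0.35 for transport, -1.37 to -0.78 for S3, -0.79 to -0.64 for metabolism, -0.38 to -0.27 for fatty acid oxidation, 0.07 to 0.17 for glycolysis, -0.15 to -0.06 for transcription factors, -0.15 to 0.23 for growth factors and 0.04 to 1.46 for injury genes. The injury median reached 1.46 without library 3, which held 328 of the 495 cycling barcodes. The cause of these shifts was not tested. Libraries 1, 2 and 5 held 13, 21 and 15 cycling barcodes, so their values for genes of low level rest on few UMIs.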
